A study of Mus musculus with 18 samples.

Results

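B cells, plasma cells and the vessels and stroma that hold lymphocytes in lymph nodes were followed through 34 mouse genes in 18 tumors grown from 4T1 cells, which come from a mammary carcinoma of the mouse that lacks hormone receptors. The genes were chosen by name as genes of these cells, and because their levels tumor by tumor were already known to be high in some tumors and near absent in others. Their levels are therefore given as a description, without a test of that pattern. Of the 34 genes, 32 had a row among the 22792 genes of the count tables, and 31 had enough counts to be tested among 15282. The immunoglobulin heavy chain genes Ighm and Ighd were not analysed here, and Tnfrsf17, with 36 counts over all tumors, was not tested.

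Female Balb/c mice received 300000 4T1 cells in the fourth mammary fat pad at 8 weeks of age. They were treated from day 7 to day 21, and tumors were taken 3 h after the last dose. Vehicle mice (5 tumors) received the carrier alone, PI3Ki mice (4 tumors) the pan-PI3K inhibitor CLR457 at 20 mg/kg 2 times a day, SHP2i mice (4 tumors) the allosteric SHP2 inhibitor SHP099 at 100 mg/kg 1 time a day, and Combo mice (5 tumors) both. Strain, cell line and implantation site were the same in all groups. RNA came from whole tumors, with 21.16 to 26.62 M counts per tumor. Levels are given in CPM, the counts scaled to a common library size with TMM factors, and the numbers of the tumors are those of their labels (no PI3Ki tumor 4 and no SHP2i tumor 1 is among them).

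A B cell carries a receptor of membrane immunoglobulin with the signalling chains that Cd79a and Cd79b encode, and signals from it through Src family kinases and the adaptor that Blnk encodes. Naive B cells leave the blood for lymph nodes across high endothelial venules, whose cells make the sulfated mucin that Glycam1 encodes, and are drawn into follicles by the chemokine that Cxcl13 encodes, which their receptor Cxcr5 reads. A B cell that becomes a plasma cell turns down most of these genes and makes secreted antibody, with Jchain and Mzb1 among the genes of its assembly. Lymph nodes lie within the mammary fat pads of mice. In RNA from whole tumors, fewer cells of a type and less RNA per cell cannot be told apart, and whether node tissue was part of any sample was not tested.

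The summed level of the 32 measured genes was 222, 446, 408, 539 and 343 CPM in Vehicle tumors 1 to 5. It was 119, 273, 446 and 709 CPM in PI3Ki tumors 1, 2, 3 and 5, and 106, 116, 142 and 131 CPM in SHP2i tumors 2 to 5. In Combo tumors 1 to 5 it was 79.6, 131, 928, 690 and 75.1 CPM. The sum is unweighted, so genes with high levels lead it. Jchain alone was at 475 CPM in Combo tumor 3 and 65.2 CPM in Combo tumor 4. Cd72 was at 70.3 to 120 CPM in the Vehicle and 17.6 to 27.7 CPM in the SHP2i tumors. In the sum the 5 Vehicle tumors and the 4 SHP2i tumors did not overlap, whereas the PI3Ki and Combo groups each held tumors at both ends of the range. Combo tumors 3 and 4 were both above the other Combo tumors in 29 of the 32 genes, an order that 6.65% of all tested genes had. The exceptions were Cd72, Tnfrsf17 and Madcam1. PI3Ki tumors 3 and 5 were both above PI3Ki tumors 1 and 2 in 23 genes, an order that 13.2% of all tested genes had. PI3Ki tumor 1 was the lowest of its group in 28 genes (20.1% of all tested genes), and Vehicle tumor 1 the lowest of its group in 25 (21.7% of all tested genes). These orders are part of what the genes were chosen for.

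**Figure D1:**
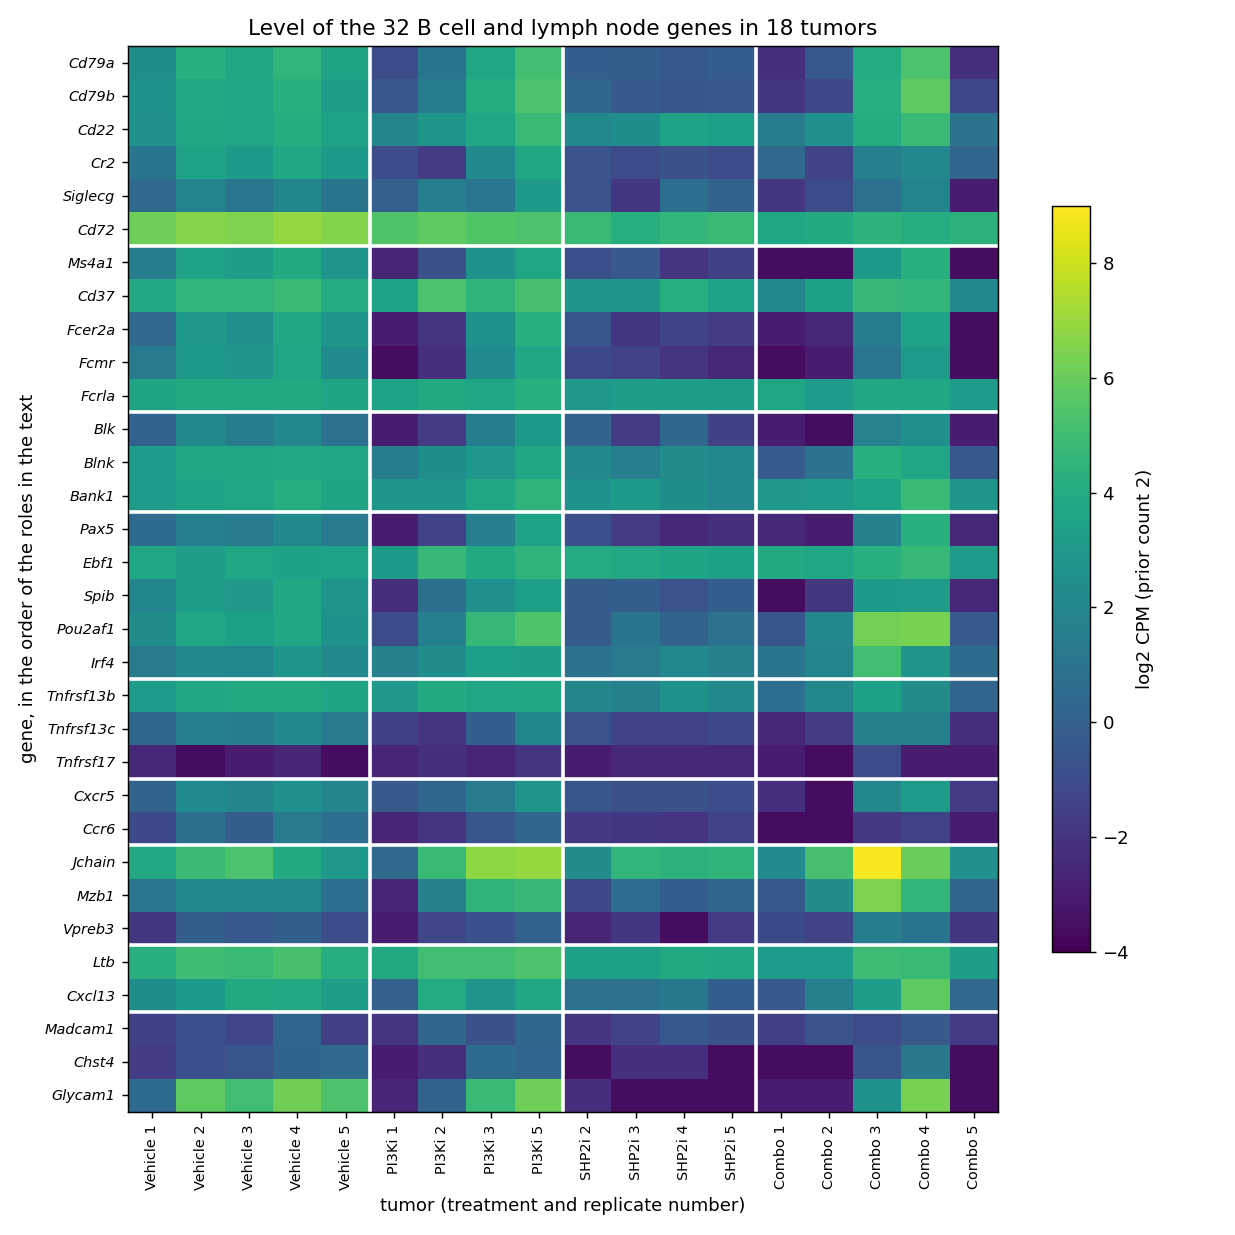
Level of the 32 measured genes (rows, in the order of their roles) in 18 tumors (columns, by treatment), as log2 CPM with a prior count of 2. White lines separate roles and treatments. Most rows are bright in the Vehicle tumors, PI3Ki tumors 3 and 5 and Combo tumors 3 and 4, and dark in the SHP2i tumors and Combo tumors 1, 2 and 5, while the rows of Cd72, Fcrla and Ebf1 follow other orders or hardly vary.

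The 4 defining B cell genes Cd79a, Cd79b, Ms4a1 and Pax5 were chosen as part of the set, so their levels cannot check its label. All 4 genes had counts in each Vehicle tumor, whereas Ms4a1 had 0 counts in Combo tumors 1, 2 and 5. Among the plasma cell markers, Jchain and Mzb1 varied as below. Sdc1 (means of 113 to 161 CPM by group) and Xbp1 (131 to 172 CPM) are also made by epithelium, and their group means stayed within narrow ranges. In Combo tumor 3 Xbp1 was at its highest, 230 CPM, and Sdc1 was at 95.4 CPM. Prdm1, another plasma cell marker, was at 8.92 to 15.4 CPM in Vehicle tumors. It was at 3.41, 4.16, 12.4, 3.37 and 2.3 CPM in Combo tumors 1 to 5. The set is thus mixed: 11 of its 32 genes had a standard deviation over 2 of their log2 CPM across the tumors, and 7 (Cd37, Fcrla, Bank1, Ebf1, Tnfrsf17, Ltb and Madcam1) one under 1. Of these 7, Tnfrsf17 had 36 counts and Madcam1 219 over all tumors. At such low counts the prior count of 2 narrows the spread of log2 CPM, so their small values do not show a steady level.

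Cd79a and Cd79b, the signalling chains of the B cell receptor, were each within a few-fold among Vehicle tumors and spread far more widely in the PI3Ki and Combo groups. Cd79a (chromosome 7, 24897497 to 24901858, GRCm38.p6) was at 5.49, 18.7, 13.2, 23.6 and 11.8 CPM in Vehicle tumors 1 to 5, and at 0.399, 1.97, 12.9 and 33.7 CPM in PI3Ki tumors 1, 2, 3 and 5. It was at 0.845, 0.867, 0.666 and 0.851 CPM in the SHP2i tumors and at 0.131, 0.671, 15.7, 39.5 and 0.133 CPM in Combo tumors 1 to 5. All SHP2i tumors were below all Vehicle tumors, and the Combo group reached from the lowest to the highest level of the series. The fitted log2 fold change of SHP2i against Vehicle was -4.17 (SE 1.44) and missed the limit (edgeR adjusted p = 0.0697). Cd79b, which lies on chromosome 11, followed the same order, from 0.175 CPM in Combo tumor 1 to 54.7 CPM in Combo tumor 4, 312-fold apart. The counts of Cd79b per count of Cd79a ranged from 0.778 to 1.38 in the 10 tumors with at least 40 Cd79a counts. This range was narrow beside that of their levels. The ratio was 0.778 to 1.11 in the Vehicle tumors and 1.17 to 1.38 in the treated tumors among them.

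The coreceptors differed among themselves. Cr2 encodes complement receptor 2, which lowers the threshold of the receptor for antigen tagged with complement and is also made by follicular dendritic cells. Cr2 was at 1.99, 11, 8.24, 13.8 and 8.46 CPM in Vehicle tumors 1 to 5, at 0.439, 0.21, 4.35 and 13.2 CPM in PI3Ki tumors 1, 2, 3 and 5, and at 0.563, 0.411, 0.5 and 0.403 CPM in the SHP2i tumors. It was at 1.31, 0.313, 2.98, 4.02 and 1.11 CPM in Combo tumors 1 to 5. Combo tumors 3 and 4 thus lay below 4 of the 5 Vehicle tumors in Cr2, although their Cd79a level was within or above the Vehicle range. Per count of Cd79a, Cr2 had 0.19 counts in Combo tumor 3 (95% interval 0.146 to 0.244) and 0.102 in Combo tumor 4 (0.0812 to 0.126), and 0.106 in PI3Ki tumor 2, against 0.361 to 0.719 in the Vehicle tumors. Intervals of such ratios come from the exact binomial split of both genes' counts and cover counting error only.

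Cd22 and Siglecg, inhibitory receptors that bind sialic acid, spread less widely than Cd79a. Cd22 ranged from 5.86 to 16.5 CPM in Vehicle and from 4.3 to 11.2 CPM in SHP2i tumors, and was highest in PI3Ki tumor 5 (28.4 CPM) and Combo tumor 4 (27.7 CPM). Siglecg ranged from 1.29 to 3.86 CPM in Vehicle and from 0.182 to 1.58 CPM in SHP2i tumors. Both groups overlapped in each of these genes.

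Cd72, an inhibitory coreceptor that macrophages also make, stood apart from the rest. It was at 70.3, 99.7, 91.0, 120 and 97.0 CPM in Vehicle tumors 1 to 5 and at 42.0, 56.2, 44.7 and 41.5 CPM in the PI3Ki tumors. In the SHP2i tumors it was at 26.9, 17.6, 24.7 and 27.7 CPM, and in Combo tumors 1 to 5 at 13.9, 15.5, 20.9, 16.8 and 20.2 CPM. Every treated tumor was below every Vehicle tumor, and Combo tumors 3 and 4 did not stand above Combo tumors 1, 2 and 5 together. Per length it was the highest of the set in Vehicle tumors, at 27.9 ± 5.22 CPM per kb of merged exons (SD, n = 5). The summed level of 10 macrophage genes, among them C1qa and Csf1r, was 2000 to 2590 CPM in Vehicle, 1870 to 3380 CPM in PI3Ki, 745 to 1540 CPM in SHP2i and 462 to 1430 CPM in Combo tumors. Its part in the level of Cd72 was not tested. Cd72 overlaps Tesk1, and the strand setting of the counting is not given in the sources used here, a limit that holds for the 12 of the 32 genes that overlap another gene.

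**Figure D2:**
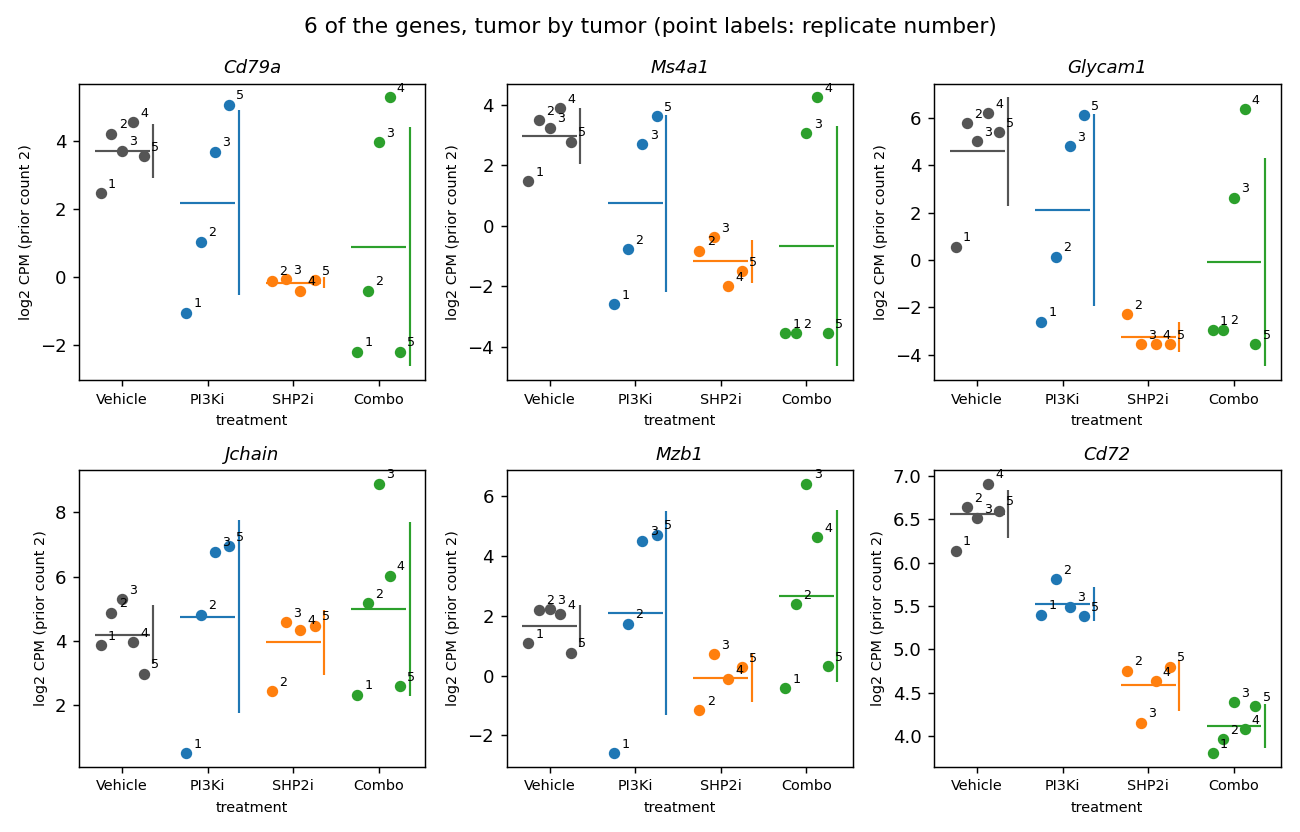
Level of 6 of the genes in each tumor (points, labelled by replicate number), as log2 CPM with a prior count of 2. Horizontal lines are group means and vertical lines 1 SD to each side, with n = 5, 4, 4 and 5. Cd79a, Ms4a1 and Glycam1 split the PI3Ki and Combo groups into high and low tumors, Jchain and Mzb1 are highest in Combo tumor 3, and Cd72 is lower in every treated tumor than in every Vehicle tumor.

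Ms4a1, which encodes the B cell surface protein CD20, was at 2.68, 11.2, 9.37, 14.7 and 6.76 CPM in Vehicle tumors 1 to 5 and at 0.0799, 0.504, 6.35 and 12.2 CPM in PI3Ki tumors 1, 2, 3 and 5. It was at 0.483, 0.684, 0.167 and 0.269 CPM in the SHP2i tumors, and had 0, 0, 202, 439 and 0 counts in Combo tumors 1 to 5. Combo tumor 4, at 19.0 CPM, was at least 141-fold above the tumors with 0 counts, taking 3 counts per library as the limit that a count of 0 allows. Against Vehicle, the fitted log2 fold change was -4.47 (SE 1.62) for SHP2i (edgeR adjusted p = 0.0804) and -0.72 (SE 1.19) for Combo (adjusted p = 0.657). Ms4a1 overlaps the gene 4930526L06Rik, whose level followed it.

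Of the other surface genes, Fcer2a, the low-affinity IgE receptor of mature B cells, and Fcmr, the receptor for the constant part of IgM, were both highest in PI3Ki tumor 5. Fcer2a ranged from 1.34 to 13.8 CPM in Vehicle and from 0.182 to 0.603 CPM in SHP2i tumors, with 19.2 CPM in PI3Ki tumor 5 and 11.2 CPM in Combo tumor 4. Fcmr ranged from 2.35 to 12.5 CPM in Vehicle and from 0.0895 to 0.362 CPM in SHP2i tumors. Combo tumor 3 was lower than Combo tumor 4 in both, at 2.77 against 11.2 CPM in Fcer2a and 2.04 against 8.72 CPM in Fcmr. Cd37, a tetraspanin of B cells and other leukocytes, and Fcrla, an Fc receptor-like protein inside B cells, varied less. Cd37 was highest in PI3Ki tumor 2 (39.8 CPM), and Fcrla lay between 7.97 and 19.2 CPM in all 18 tumors.

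Among the kinases and adaptors, Blk, the Src family kinase of B cells, ranged from 0.969 to 4.26 CPM in Vehicle tumors and reached 8.23 CPM in PI3Ki tumor 5, with 1 count in PI3Ki tumor 1 and 0 in Combo tumor 2. Blnk, the linker between the receptor and its effectors, ranged from 8.68 to 14.4 CPM in Vehicle and from 2.83 to 5.04 CPM in SHP2i tumors, and was highest in Combo tumor 3 at 18.7 CPM. Bank1, a scaffold protein of B cell signalling, ranged from 8.77 to 17 CPM in Vehicle and from 3.94 to 8.3 CPM in SHP2i tumors. The Vehicle and SHP2i tumors did not overlap in Blnk or Bank1 and overlapped by 1 or more tumors in Blk.

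The transcription factors differed in their order of tumors. Pax5, the factor that commits cells to the B lineage, and Spib, an Ets factor of B cells and plasmacytoid dendritic cells, followed Cd79a. Pax5 was at 1.38, 2.97, 2.53, 4.35 and 2.57 CPM in Vehicle tumors 1 to 5, at 0.0399, 0.294, 2.91 and 11.3 CPM in PI3Ki tumors 1, 2, 3 and 5, and at 0.483, 0.228, 0.0833 and 0.134 CPM in the SHP2i tumors. In Combo tumors 1 to 5 it was at 0.0875, 0.0447, 3.14, 19.1 and 0.0886 CPM, so that Combo tumor 4 alone held 442 of its counts. Spib ranged from 3.88 to 13.1 CPM in Vehicle and from 0.541 to 0.867 CPM in SHP2i tumors.

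Pou2af1, the coactivator that Oct factors need at octamer sites in B cells and that plasma cells keep, was high in both Combo tumors 3 and 4. It was at 5.22, 12.4, 10.6, 13.7 and 6.11 CPM in Vehicle tumors 1 to 5 and at 0.399, 2.98, 25.6 and 42.8 CPM in PI3Ki tumors 1, 2, 3 and 5. In the SHP2i tumors it was at 0.805, 1.96, 1 and 1.79 CPM, and in Combo tumors 1 to 5 at 0.613, 3.98, 75.4, 84.7 and 0.753 CPM. Both high Combo tumors were above all other tumors. Irf4, which drives plasma cell formation and is also made by activated T cells, was highest in Combo tumor 3 (32.8 CPM), with 6.82 CPM in Combo tumor 4 and 6.97 CPM in the highest Vehicle tumor. Ebf1, a B lineage factor that adipose stroma also makes, lay between 8.27 and 25.3 CPM in all tumors.

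Octamer motifs (ATGCAAAT, searched on both strands) were found within 250 bases upstream of the start of 3 of the 27 genes of the set that have a promoter entry, Blnk, Ccr6 and Vpreb3. These were 3 of the 32 promoter entries of the set, beside 1.6% of all 32851 RefSeq promoters of that length. Another Ccr6 entry, chr17:8242276-8242525, held none of the motifs searched. Both of the windows printed here, from RefSeq for GRCm38.p6, are shown because these genes carry the motif of the factors that Pou2af1 serves and yet differed in order across the tumors. Capitals mark the motif, which lies on the opposite strand in each and so reads ATTTGCAT, and starts 45 bases before the start of Vpreb3 and 68 before that of Ccr6.
Vpreb3, chr10:75948050-75948299, plus strand: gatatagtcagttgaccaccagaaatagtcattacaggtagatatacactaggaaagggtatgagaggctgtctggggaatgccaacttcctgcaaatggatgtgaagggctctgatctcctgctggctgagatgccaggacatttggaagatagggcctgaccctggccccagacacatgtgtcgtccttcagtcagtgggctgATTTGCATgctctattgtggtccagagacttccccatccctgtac
Ccr6, chr17:8235793-8236042, plus strand: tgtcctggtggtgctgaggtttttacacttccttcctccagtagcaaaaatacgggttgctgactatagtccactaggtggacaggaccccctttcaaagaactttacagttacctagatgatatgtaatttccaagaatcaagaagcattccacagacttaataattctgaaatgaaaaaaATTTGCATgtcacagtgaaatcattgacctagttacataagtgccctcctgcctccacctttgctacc
The other motifs searched on both strands were TCCC and GGGA with 2 bases between them, for EBF1, found for Cd22 (0.779% of all promoters), GAGGAAGT for PU.1 and SPIB, found for Cd37 and Cd72 (2.44%), and the E-box CAGCTG, found for Chst4, Cxcl13, Fcer2a, Fcmr and Tnfrsf13c (13.0%). A match is a run of letters and not a shown binding site. No promoter entry was matched for Cd79b, Ighm, Ighd, Ms4a1, Blk, Cxcr5 and Mzb1.

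Vpreb3, which encodes a protein that holds immunoglobulin light chains in the endoplasmic reticulum, was at 0.185, 0.861, 0.654, 0.861 and 0.436 CPM in Vehicle tumors 1 to 5 and at 2.73 and 1.99 CPM in Combo tumors 3 and 4, above every other tumor. Ccr6 encodes the receptor for the chemokine of the Ccl20 gene on mature B cells and some T cells. In these 2 tumors it was above the other Combo tumors but below every Vehicle tumor. It was at 0.369, 1.64, 0.872, 2.38 and 1.57 CPM in Vehicle tumors 1 to 5, at 0.0799, 0.168, 0.605 and 1.14 CPM in the PI3Ki tumors and at 0.201, 0.182, 0.167 and 0.313 CPM in the SHP2i tumors. Its level was 0, 0, 0.204, 0.302 and 0.0443 CPM in Combo tumors 1 to 5. All SHP2i and all Combo tumors were below all Vehicle tumors in Ccr6. For the Combo group 2 genes of the set, Ccr6 and Cd72, showed this, and 13.4% of all tested genes did. Per count of Cd79a, Ccr6 had 0.013 counts in Combo tumor 3 (5 counts, 95% interval 0.00419 to 0.0306) and 0.00765 in Combo tumor 4 (7 counts, 0.00307 to 0.0158), against 0.0662 to 0.133 in the Vehicle tumors.

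Cxcr5, the follicular homing receptor, ranged from 1.02 to 5.58 CPM in Vehicle and from 0.448 to 0.603 CPM in SHP2i tumors, and was highest in Combo tumor 4 (8.59 CPM). Unlike Ccr6, it was thus high in Combo tumors 3 and 4 (3.96 and 8.59 CPM). The BAFF receptor gene Tnfrsf13c, needed for the survival of mature B cells, ranged from 1.2 to 4.02 CPM in Vehicle and from 0.292 to 0.563 CPM in SHP2i tumors, with 3.06 and 3.11 CPM in Combo tumors 3 and 4. Tnfrsf13b, which encodes the receptor TACI of B cells and macrophages, was at 8.63, 13.4, 15, 15 and 12.1 CPM in Vehicle tumors 1 to 5, at 7.75, 15.2, 12.2 and 13.9 CPM in the PI3Ki tumors and at 3.7, 3.15, 6.21 and 4.43 CPM in the SHP2i tumors. Its level in Combo tumors 1 to 5 was 1.62, 4.02, 10.8, 5.23 and 1.11 CPM, and only Combo tumor 3 reached the Vehicle range. Tnfrsf17, the receptor BCMA of plasma cells, had 10 counts in Combo tumor 3 and 0 to 4 in each other tumor.

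The plasma cell genes of the set were highest in Combo tumor 3, not in Combo tumor 4. Jchain, the joining chain of secreted IgM and IgA, was at 14.4, 29.1, 39.2, 15.3 and 7.76 CPM in Vehicle tumors 1 to 5, at 1.32, 28, 109 and 123 CPM in PI3Ki tumors 1, 2, 3 and 5 and at 5.31, 23.6, 20.2 and 22.0 CPM in the SHP2i tumors. In Combo tumors 1 to 5 it was at 4.86, 35.7, 475, 65.2 and 5.89 CPM. Jchain therefore differed from Cd79a in the SHP2i group, whose tumors overlapped the Vehicle tumors and where 3 of 4 were above the Vehicle median of 15.3 CPM. Mzb1, an endoplasmic reticulum protein of antibody-secreting and marginal zone B cells, was at 2.03, 4.54, 4.58, 4.06 and 1.61 CPM in Vehicle tumors and at 0.0799, 3.23, 22.8 and 26.1 CPM in the PI3Ki tumors. It was at 0.362, 1.55, 0.833 and 1.12 CPM in the SHP2i tumors and at 0.657, 5.14, 85.5, 24.7 and 1.15 CPM in Combo tumors 1 to 5.

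The ratio of plasma cell to B cell counts set the tumors apart in another order than the levels did. Mzb1 had 0.137 to 0.37 counts per count of Cd79a in the 5 Vehicle tumors. It had 1.64 (95% interval 1.13 to 2.41), 1.77 (1.54 to 2.02) and 0.775 (0.698 to 0.86) in PI3Ki tumors 2, 3 and 5, and 5.44 (4.88 to 6.08) and 0.626 (0.563 to 0.696) in Combo tumors 3 and 4. All 5 treated tumors with a ratio were above all 5 Vehicle tumors, as they also were, by less, in Cd79b per Cd79a. No SHP2i tumor had the 40 Cd79a counts set as the limit for a ratio. Jchain per Cd79a ranged from 0.65 to 2.98 in Vehicle tumors and was 30.2 in Combo tumor 3, 14.2, 8.41 and 3.65 in PI3Ki tumors 2, 3 and 5, and 1.65 in Combo tumor 4, within the Vehicle range. Pou2af1 per Cd79a was 0.519 to 0.95 in Vehicle tumors, 1.51, 1.98 and 1.27 in PI3Ki tumors 2, 3 and 5, 4.8 in Combo tumor 3 and 2.14 in Combo tumor 4. Ms4a1 per Cd79a was 0.487 to 0.712 in Vehicle tumors, 0.255, 0.491 and 0.362 in PI3Ki tumors 2, 3 and 5, and 0.525 and 0.48 in Combo tumors 3 and 4.

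**Figure D3:**
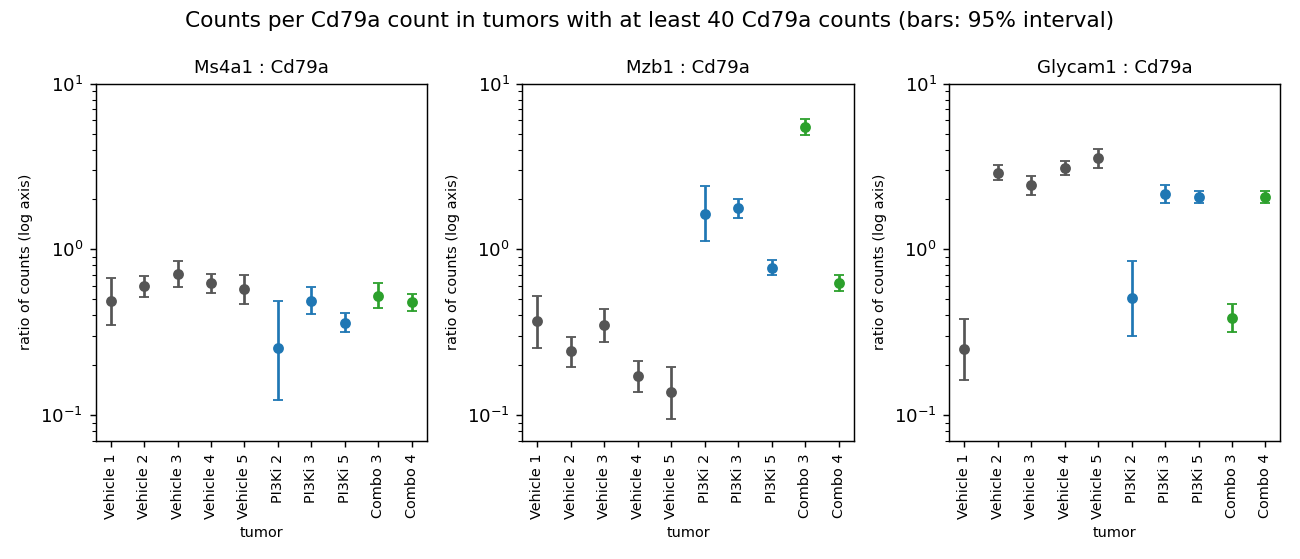
Counts of Ms4a1, Mzb1 and Glycam1 per count of Cd79a (log axis) in the 10 tumors with at least 40 Cd79a counts, coloured by treatment, with exact 95% intervals for counting error. Ms4a1 stays between 0.255 and 0.712, Mzb1 ranges from at most 0.37 in Vehicle tumors to 5.44 in Combo tumor 3, and Glycam1 is low in Vehicle tumor 1, PI3Ki tumor 2 and Combo tumor 3 and near 2 to 3.5 in the others.

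Of the ligands that organize lymphoid tissue, Ltb, the lymphotoxin beta subunit made by lymphocytes, ranged from 17.2 to 37.2 CPM in Vehicle and from 10.5 to 14.7 CPM in SHP2i tumors, which did not overlap. Cxcl13, the follicle chemokine, was at 5.45, 8.37, 14.8, 14.1 and 9.2 CPM in Vehicle tumors 1 to 5, at 0.918, 15.8, 6.73 and 13.9 CPM in PI3Ki tumors 1, 2, 3 and 5 and at 1.81, 1.78, 2.29 and 0.851 CPM in the SHP2i tumors. In Combo tumors 1 to 5 it was at 0.7, 3.09, 9.71, 53.8 and 1.28 CPM. Combo tumor 4 was therefore the highest, and the next tumor, PI3Ki tumor 2, had a Cd79a level of only 1.97 CPM. Per count of Cd79a, Cxcl13 had 8.0 counts in PI3Ki tumor 2 (95% interval 5.9 to 11.1) and 0.414 to 1.36 in the 9 other tumors with a ratio.

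Glycam1, the mucin of high endothelial venules and the widest-ranging gene of the set, was at 1.38, 54.3, 32, 72.9 and 41.7 CPM in Vehicle tumors 1 to 5 and at 0.0799, 1.01, 27.9 and 69.5 CPM in PI3Ki tumors 1, 2, 3 and 5. It had 3, 0, 0 and 0 counts in the SHP2i tumors and 1, 1, 149, 1891 and 0 counts in Combo tumors 1 to 5. At 81.7 CPM, Combo tumor 4 was at least 597-fold above the 4 tumors with 0 counts. Glycam1 (chromosome 15, 103562759 to 103565081) is also made by the lactating mammary gland. Per count of Cd79a it had 2.43 to 3.54 counts in Vehicle tumors 2 to 5 and 2.06 to 2.16 in PI3Ki tumors 3 and 5 and Combo tumor 4. In Vehicle tumor 1 the ratio was 0.252 (95% interval 0.163 to 0.379) and in Combo tumor 3 it was 0.387 (0.318 to 0.469), and in PI3Ki tumor 2 it was 0.511, so that these 3 tumors held B cell counts with fewer Glycam1 counts each. Chst4, a sulfotransferase that modifies such mucins, ranged from 0.231 to 1.26 CPM in Vehicle tumors, with 2.25 CPM in Combo tumor 4, 0 to 3 counts in each SHP2i tumor and 0 counts in Combo tumors 1, 2 and 5. Madcam1, an adhesion molecule of gut venules, stayed at or below 1.18 CPM throughout.

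Against Vehicle, PI3Ki left the set with 0 genes higher and 1 lower of the 31 tested, where a gene counted if edgeR gave it an adjusted p below 0.05 over all genes and a log2 fold change above 1 or below -1. At these limits 1.43% of all tested genes were higher and 0.321% lower. The gene was Cd72, with a log2 fold change of -1.05 (SE 0.163, edgeR adjusted p = 0.000771), and of -0.96 without Vehicle tumor 4. Over the set the median log2 fold change was -0.07, beside 0.01 over all genes. The widest values were -1.45 for Ccr6 and 1.95 for Mzb1, neither past the limits, and the SE was over 1 for Cd79a, Ms4a1 and Glycam1. The PI3Ki tumors carried 805 to 1940 CPM of 10 skeletal muscle genes against 4.27 to 103 CPM in Vehicle, with the lowest sum in PI3Ki tumor 5. Its part in these values was not tested.

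Against the same Vehicle tumors, SHP2i had 5 of the 31 genes lower and 0 higher, where 3.1% of all tested genes were lower and 0.641% higher. The 5 were Glycam1, Cr2 (log2 fold change -4.19, SE 1.01, edgeR adjusted p = 0.0131), Ccr6 (-2.64, SE 0.755), Cd72 (-1.98, SE 0.17) and Tnfrsf13b (-1.55, SE 0.465). The fitted value of Glycam1, -10.08 (SE 2.93, edgeR adjusted p = 0.0337), depends on the prior count, since the SHP2i tumors held 3 counts in all. The SHP2i and Vehicle tumors did not overlap in 22 of the 31 genes, each lower in SHP2i, which 10.5% of all tested genes showed. In the set 30 of 31 values were negative, with a median of -2.29, beside 0.02 over all genes. Ebf1, the exception, was at 0.22. The model estimates 1 spread from all 4 groups, so the width of the PI3Ki and Combo groups entered this comparison. The part of that width in the counts that follow was not tested. With the Vehicle and SHP2i tumors fitted alone, 24 genes of the set were lower, beside 4.59% of all genes of that fit, and with DESeq2 14 were, beside 3.73%. Cd72 and Cr2 passed with any 1 tumor left out. Only 2 genes passed without SHP2i tumor 2, 3 or 5 or Vehicle tumor 2 or 4, and 3 without SHP2i tumor 4 or Vehicle tumor 3. In these fits 2.3% to 2.81% of all genes were lower and 0.361% to 0.642% higher. The macrophage genes (6 of 10 lower) and MHC class II genes (6 of 8 lower) moved in the same comparison, and their part in the levels of genes that macrophages also make was not tested.

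Combo had 4 genes lower and 0 higher than Vehicle, beside 6.86% and 3.99% of all tested genes. Ccr6 had a log2 fold change of -3.56 (SE 0.76, edgeR adjusted p = 0.00127), Cd72 of -2.45 (SE 0.16), Cr2 of -2.16 (SE 0.806) and Tnfrsf13b of -1.49 (SE 0.43). The median over the set was -0.55 and 21 of 31 values were negative. The group was split, since Combo tumors 3 and 4 stood with the Vehicle tumors in most genes. Without these 2 tumors 22 genes were lower than Vehicle, beside 8.85% of all genes of that fit, but they were left out for their high levels of these genes, so that this count follows from the choice. With Combo tumor 4 alone left out 7 were lower, beside 6.68% of all genes of that fit. Glycam1 was among the 7, at a log2 fold change of -4.66 against -1.20 with that tumor. Ccr6, Cd72 and Tnfrsf13b passed with any 1 tumor left out, and Cr2 missed the limits when 1 of Combo tumors 1, 2 and 5 or Vehicle tumors 2 to 5 was left out. Mzb1 and Jchain had positive values, 2.80 (SE 1.11, edgeR adjusted p = 0.051) and 2.47 (SE 1.08, adjusted p = 0.074). Without Combo tumor 3 alone these values were 1.23 for Mzb1 and 0.40 for Jchain.

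Combo was higher than SHP2i in 6 genes and lower in 0, beside 1.44% and 3.13% of all tested genes. They were Glycam1 (log2 fold change 8.88, SE 2.97), Mzb1 (4.61, SE 1.38), Pou2af1 (4.58, SE 1.42), Cd79b (4.22, SE 1.47), Vpreb3 (3.18, SE 0.943) and Cxcl13 (3.02, SE 1.04), at edgeR adjusted p between 0.0232 and 0.0485. None of these genes separated the groups, since Combo tumors 1 and 5 lay within or below the SHP2i range in most of them. Without Combo tumors 3 and 4 the values were -0.11 for Glycam1, -1.41 for Cd79b and -0.01 for Cxcl13. There 1 gene of the set passed, in the lower direction, beside 3.89% of all genes of that fit. This again follows in part from leaving tumors out for these levels. With both groups fitted alone 0 genes passed, beside 1.12% of all genes higher and 2.28% lower. None did without SHP2i tumor 2 or 4, 1 did without SHP2i tumor 5 or Combo tumor 4, 2 without SHP2i tumor 3 and 3 without Combo tumor 3. In these fits with 1 tumor left out, 1.05% to 1.52% of all genes were higher and 2.45% to 4.49% lower.

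**Figure D4:**
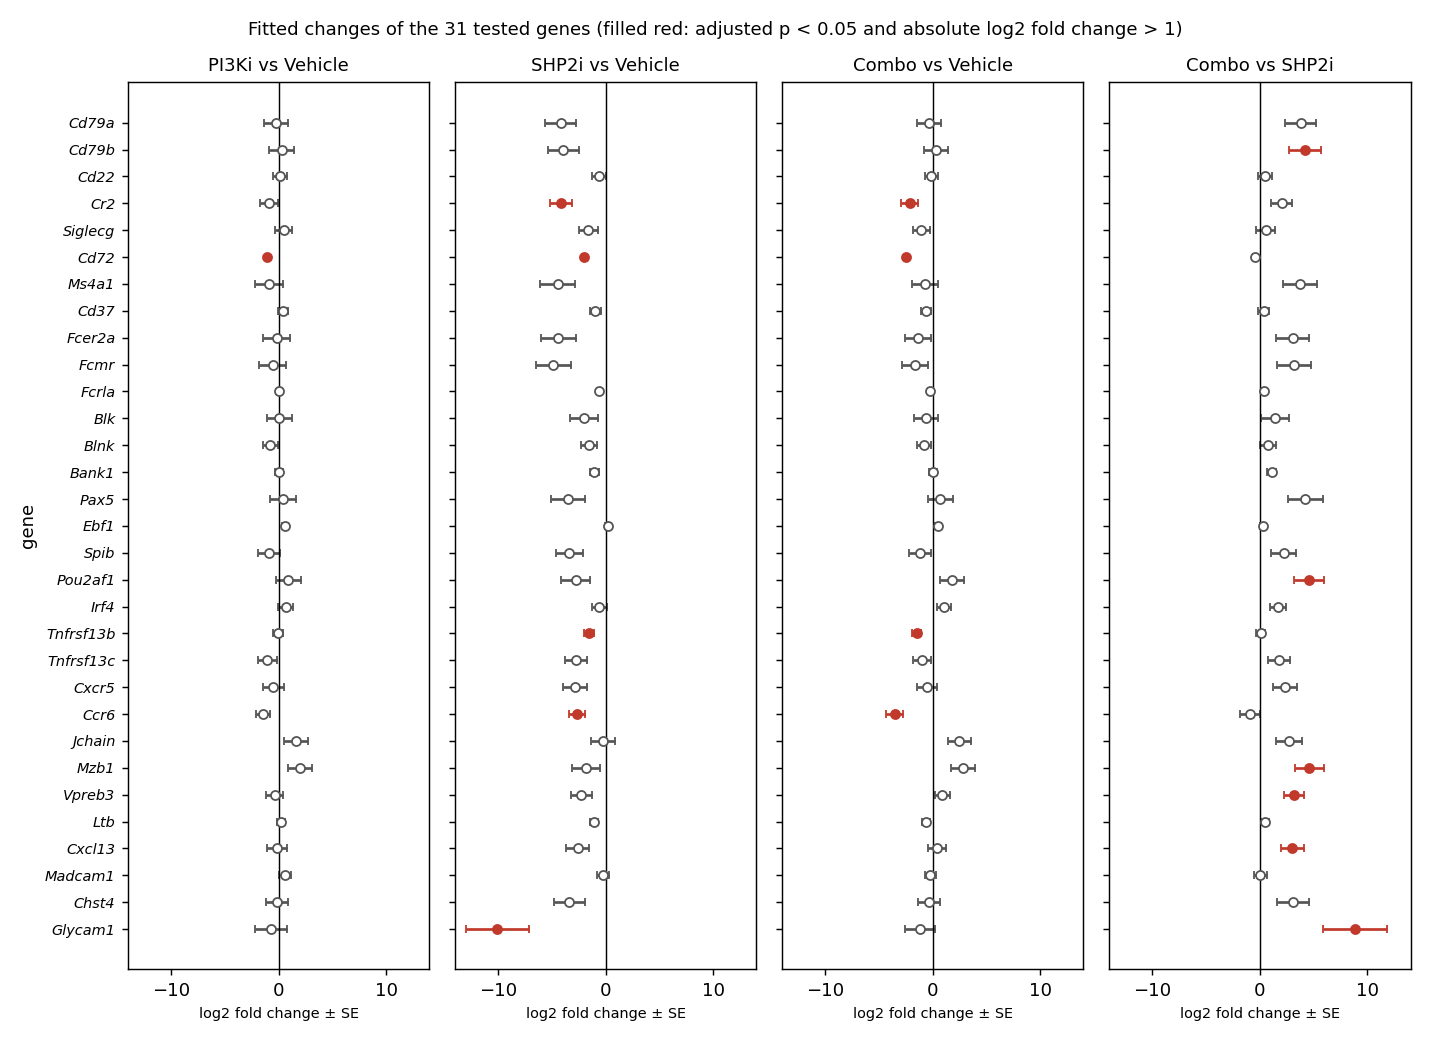
Fitted log2 fold changes of the 31 tested genes, in the order of their roles, with SE, for 3 comparisons with the shared Vehicle tumors and for Combo against SHP2i. Filled red points passed both limits of the text, which were 1, 5, 4 and 6 genes. Values against Vehicle lie to the left for SHP2i (30 of 31 negative) and on both sides for PI3Ki and Combo.

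SHP2i was lower than PI3Ki in 5 genes, Cd79b (log2 fold change -4.25, SE 1.5), Cr2, Glycam1, Ltb (-1.31, SE 0.413) and Tnfrsf13b, beside 5.24% of all tested genes. Without SHP2i tumor 2 or 3 or PI3Ki tumor 5, 0 of the set passed, 1 did without SHP2i tumor 5, 3 without SHP2i tumor 4 or PI3Ki tumor 2, and 11 without PI3Ki tumor 1. In these fits 4.11% to 5.42% of all genes were lower and 0.887% to 1.64% higher, with 5.39% lower without PI3Ki tumor 1. With all tumors in the fit, no gene of the set was higher in SHP2i than in PI3Ki, beside 1.39%. Combo was lower than PI3Ki in 2 genes, Cd72 (-1.40, SE 0.162) and Tnfrsf13b (-1.43, SE 0.447), and higher in 0, beside 8.36% and 2.74%. The count was 5 without Combo tumor 3, 6 without Combo tumor 4 and 4 without PI3Ki tumor 1. Of all genes in those fits 9.86%, 7.97% and 8.86% were lower and 2.85%, 2.71% and 2.56% higher. The interaction of both inhibitors asks whether the Combo value differs from the sum of both single values on the log2 scale. In edgeR it had 0 genes of the set past the limits, beside 0.308% of all tested genes higher and 1.36% lower. At an unadjusted p under 0.05 it had 9 of 31, beside 2843 of all 15282 tested genes. With DESeq2 1 gene of the set passed, beside 0.445% of all genes higher and 2.33% lower. The median of the interaction over the set was 2.65 in edgeR.

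Other B cell genes, 14 from outside the set, had a median log2 fold change of -1.84 in SHP2i against Vehicle, with 5 lower and 0 higher, beside the 3.1% and 0.641% of all tested genes given above. Those 5 were Cd40, Dok3, Fcrl5, H2-DMb2 and Stap1. H2-DMb2 was at 71.5, 71.8, 66.3 and 68.4 CPM in PI3Ki tumors 1, 2, 3 and 5 and so did not follow Cd79a there. Cd40 (18.6 CPM) and Dok3 (36.5 CPM) were highest in PI3Ki tumor 2, where Cd79a was at 1.97 CPM. The part of macrophages and of the MHC class II genes in these levels was not tested. Fcrl5, an Fc receptor-like protein of marginal zone B and plasma cells, was at 0.138 to 2.58 CPM in Vehicle tumors and at or below 0.163 CPM in all others, Combo tumors 3 and 4 included (0.163 and 0.0432 CPM). It was lower than Vehicle in PI3Ki (-3.64, SE 0.792, edgeR adjusted p = 0.0116), SHP2i (-5.32, SE 0.977) and Combo (-4.24, SE 0.786). The SHP2i value depends on the prior count, since Fcrl5 had 0 counts in 2 of the 4 SHP2i tumors. Of 16 further genes of B cell receptor signalling, 8 were lower in SHP2i and 8 in Combo than in Vehicle, beside 3.1% and 6.86% of all tested genes, among them Btk, Lyn and Ptpn6, which macrophages make too.

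Of 7 tested germinal center genes, 1 was lower than Vehicle in SHP2i and 1 in Combo, in each case Rgs13, beside the same shares. Derl3, a protein of endoplasmic reticulum quality control that plasma cells make, was at 10.9 CPM in Combo tumor 3 and 1.6 CPM in Combo tumor 4. The other 9 plasma cell genes outside the set, among them Txndc5, Sdc1 and Xbp1, held none past the limits between Combo and SHP2i. In Combo against Vehicle, 1 of the 10 was lower and 0 higher, beside 6.86% and 3.99% of all tested genes.

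T cell genes shared part of the order. The summed level of 16 T cell genes, among them Cd247, Cd28 and Lck, was 115 to 239 CPM in Vehicle, 124 to 239 CPM in PI3Ki and 89.4 to 134 CPM in SHP2i tumors. In Combo tumors 3 and 4 it was 243 and 230 CPM, and in Combo tumors 1, 2 and 5 it was 95.3, 100 and 91.8 CPM. All 16 genes had counts in every tumor. In SHP2i against Vehicle 0 of 16 passed the limits in edgeR, beside 3.1% of all tested genes lower and 0.641% higher. There 9 of the 16 had an unadjusted p under 0.05, beside 4482 of all 15282 tested genes, and the median log2 fold change was -1.07. In Combo against Vehicle 1 of the 16 was lower, Cd8a, beside 6.86% of all tested genes. The 10 genes listed for naive and recirculating lymphocytes, among them Ccr7 and Il7r, summed to 431 CPM in Combo tumor 4 and 388 CPM in PI3Ki tumor 3, against 181 to 275 CPM in Vehicle tumors. Of 9 further genes of high endothelial venules, none had the range of Glycam1, and Fut7, the fucosyltransferase of selectin ligands, was at 0.653 and 0.561 CPM in Combo tumors 3 and 4 and 0.646 to 1.64 CPM in Vehicle tumors. The summed level of 10 carcinoma epithelium genes was 706 to 1070 CPM in Combo and 807 to 1280 CPM in Vehicle tumors.

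**Figure D5:**
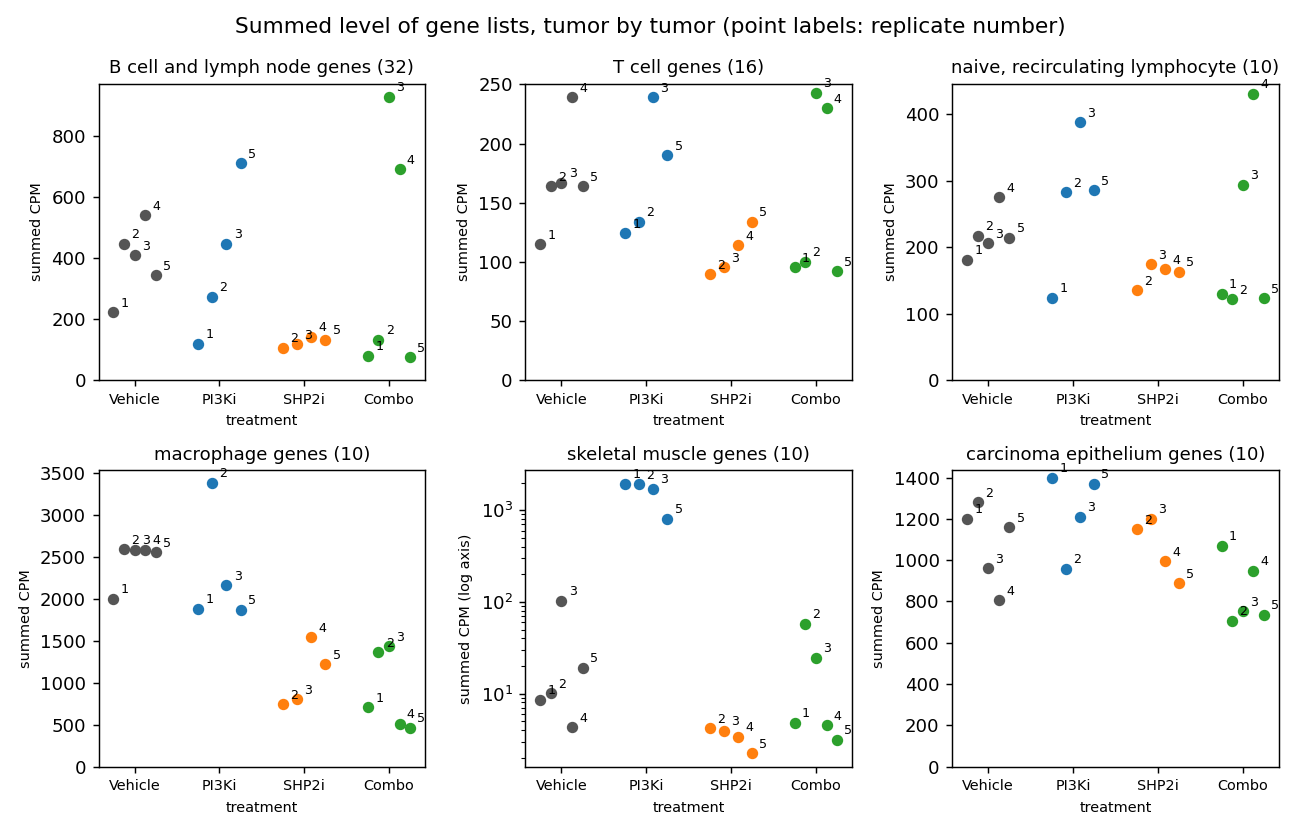
Summed CPM of 6 gene lists in each tumor (points, labelled by replicate number), on linear axes from 0 except for the log axis of the muscle genes. Combo tumors 3 and 4 are high for the B cell and lymph node genes (928 and 690 CPM) and the T cell genes (243 and 230 CPM), the macrophage genes are lower in every SHP2i and Combo tumor than in every Vehicle tumor, and the muscle genes are high in the PI3Ki tumors.

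Genes outside the set whose tumor by tumor levels were nearest to the B cell profile were found by the root mean square difference between their centred log2 CPM and the mean of Ms4a1, Cd79a and Cd79b over the 18 tumors. Of the 10 nearest of the 15269 tested genes with a symbol, 7 belonged to the set. Cd79a, Cd79b and Ms4a1 were among them by construction, with Spib (0.62), Pax5 (0.65), Fcmr (0.65) and Fcer2a (0.67) next. Of the genes outside the set that are reported here, Fcrl1 (0.49), an Fc receptor-like protein of B cells, and 4930526L06Rik (0.51), which overlaps Ms4a1, were nearest. Next came Dsc3 (0.76), Nsg2 (0.80), Gm2023 (0.82), H2-Ob (0.83), Btla (0.91), Dtx1 (0.96) and Gm1987 (0.97), then Coch (1.11), Sidt1 (1.21), Serpina10 (1.22), Izumo1r (1.31) and Ptprcap (1.32). H2-Ob encodes a chain of the MHC class II modulator of B cells, Btla an inhibitory receptor of B and T cells, and Coch a secreted protein of follicular dendritic cells. Gm2023 and Gm1987 have near-identical copies among the chemokine genes of lymph node stroma, so their counts are uncertain. At the other end of the set, Ebf1 (2.45), Madcam1 (2.34) and Fcrla (2.34) were farthest from the profile.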

How the data were processed

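The authors isolated RNA from frozen tumors, made directional poly(A) libraries, read paired ends of 75 bases, trimmed adapters with cutadapt, aligned to GRCm38 with the 2-pass mode of STAR and deposited counts per Entrez gene made with qCount of QuasR. The labels name GRCm38 and hg19 as builds. Versions, the annotation and the strand setting of counting are not given in the sources used here. From these counts, edgeR 4.0.16 with limma 3.58.1 in R 4.3.3 kept 15282 genes (filterByExpr, minimum count 10 and minimum total 15), scaled libraries with TMM and fitted all 18 tumors in 1 quasi-likelihood model with 4 groups. Adjusted p-values are Benjamini-Hochberg over all tested genes, 2-sided. A gene passed at an adjusted p below 0.05 and a log2 fold change beyond 1 in size. Log2 CPM used a prior count of 2. Symbols came from RefSeq through the Entrez numbers, and rows with no symbol held 0.0193% of all counts. Ratios and intervals used scipy 1.17.1 in Python 3.11.15, and plots matplotlib 3.10.9.

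The members and lists were chosen with earlier results of these data known. All 34 members were to be named, and outside them the 15 genes nearest to the B cell profile and, of each list, the 3 with the highest mean CPM and those past the limits in a comparison described. Other list genes named are examples, and some genes that this rule names are not reported here. The labels do not tie tumors to animals, while the study counts its samples as animals. Over all pairs, no 2 libraries agreed within counting noise. The replicate numbers did not pair the tumors. Alternatives were DESeq2 1.42.0, other scalings and filters, fits of the compared groups alone, a replicate block and leaving out tumors. Scripts were tested on simulated data.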

Additional observations from a re-analysis of the deposited data

Results flagged for a closer look

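Among 188 groups of values (a gene in a treatment group), 9 had 1 tumor farther from the rest than Dixon's 95% limit allows, where chance alone marks about 1 group in 20. In Vehicle tumor 1 there were 3 low values. Glycam1 was at 1.38 CPM there against 32 to 72.9 CPM in the other Vehicle tumors, Cr2 at 1.99 CPM against 8.24 to 13.8 CPM, and Cxcr5 at 1.02 CPM against 3.66 to 5.58 CPM. Jchain was low in SHP2i tumor 2, at 5.31 CPM against 20.2 to 23.6 CPM in the other SHP2i tumors. Cd79a was at 0.666 CPM in SHP2i tumor 4, against 0.845 to 0.867 CPM, and Spib at 0.541 CPM there, against 0.805 to 0.867 CPM. Tnfrsf17 was high in Combo tumor 3, at 0.408 CPM from 10 counts, against 0 to 0.0443 CPM in the other Combo tumors. Also marked, from 1 and 3 counts, were Tnfrsf17 in SHP2i tumor 2, low at 0.0402 CPM, and Glycam1 in the same tumor, high at 0.121 CPM beside 0 counts in the other SHP2i tumors.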

How the results depend on the processing

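The numbers of genes past the limits differed between fits. With the compared groups fitted alone, 24 genes passed for SHP2i against Vehicle in place of 5 (all genes of that fit: 4.59% lower, 1.22% higher). For SHP2i against PI3Ki 10 passed in place of 5 (5.4% lower, 1.09% higher). For Combo against PI3Ki 1 passed in place of 2 (6.87% lower, 2.16% higher), and for Combo against SHP2i 0 in place of 6 (2.28% lower, 1.12% higher). With DESeq2 14 passed for SHP2i against Vehicle (3.73% lower, 0.864% higher). It gave 13 for SHP2i against PI3Ki (5.81% lower, 1.48% higher) and 1 for the interaction (2.33% lower, 0.445% higher). Leaving out Combo tumors 3 and 4 was an alternative added after their levels were seen and chosen by them. Without them 22 passed for Combo against Vehicle (beside 8.85% of all genes lower in that fit), 23 for Combo against PI3Ki (10.6%) and 1 for Combo against SHP2i (3.89%). In the last, the log2 fold changes of Cd79b (-1.41), Cxcl13 (-0.01) and Glycam1 (-0.11) turned negative. These moves follow at least in part from that choice. With 1 tumor left out at a time, 2 to 5 genes passed for SHP2i against Vehicle (all genes: 2.3% to 3.01% lower, 0.361% to 0.642% higher). It was 0 to 1 for PI3Ki against Vehicle (0.195% to 0.312% lower, 1.03% to 1.52% higher) and 3 to 7 for Combo against Vehicle (6.08% to 8.24%, 3.33% to 4.29%). For Combo it was 0 to 8 against SHP2i (2.39% to 4.49%, 1.05% to 1.72%) and 2 to 6 against PI3Ki (6.83% to 9.86%, 2.14% to 3.16%). It was 0 to 11 for SHP2i against PI3Ki (4.11% to 5.42%, 0.887% to 1.64%) and 0 for the interaction (0.648% to 2.14%, 0.149% to 0.466%). Other scalings and filters left each count within 1.5 times, and all 256 levels recomputed under other scalings moved by less than the spread in their group. The cause of these changes was not tested.

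The replicate numbers did not pair the tumors, since 8 of 24 same-numbered pairs correlated over 0.1 and 4 of 18 tumors were nearest to a tumor of their own number. With a replicate block, 13 genes of the set passed for SHP2i against Vehicle (all genes of that fit: 3.3% lower, 0.51% higher). There were 14 for SHP2i against PI3Ki (5.33% lower, 1.2% higher) and 6 for Combo against PI3Ki (8.23% lower, 2.55% higher). Combo against Vehicle had 5 (7.14% lower, 3.53% higher) and Combo against SHP2i 4 (3.05% lower, 1.33% higher). PI3Ki against Vehicle had 0 (0.222% lower, 1.11% higher) and the interaction 0 (0.785% lower, 0.183% higher).

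Genes with few counts, such as Ccr6, Chst4, Vpreb3 and Tnfrsf17, are measured with the least precision at this depth.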

Other observations

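Of 13 genes listed as ligands for B cell survival receptors and for lymphoid tissue, 9 were tested, and 2 were lower than Vehicle in SHP2i and 2 in Combo, beside 3.1% and 6.86% of all tested genes. Lta, which encodes lymphotoxin alpha, was lower than Vehicle in SHP2i (log2 fold change -1.94) and Combo (-2.53), and Tnf in PI3Ki (-1.65), SHP2i (-2.02) and Combo (-3.66), all past an edgeR adjusted p of 0.05. Tnf is also a macrophage gene, and the part of macrophages in its level was not tested. Of 10 genes of lymph node stroma and follicular dendritic cells, Ch25h and Grem1 were lower and Enpp2 higher in Combo than in Vehicle. Among the 9 further genes of high endothelial venules, Selp was higher than Vehicle in PI3Ki (1.26) and Sele in SHP2i (1.56), beside 1.43% and 0.641% of all tested genes. Cd34, Emcn, Fut7 and Gcnt1 were lower in Combo, beside 6.86%. The fall in Combo was not particular to that list, since 7 of 10 endothelial genes were also lower than Vehicle, with a median of -1.16. The endothelial genes summed to 218 to 297 CPM in Combo and 509 to 622 CPM in Vehicle tumors. Their part in the levels of the venule genes was not tested.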
